A study of Homo sapiens with 16 samples.

Results

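The genes described here encode the subunits of oxidative phosphorylation, measured in 2 human leukaemia cell lines with and without the compound that the labels call NEL. They were chosen by symbol from the deposited count table, by the naming patterns of the NDUF, SDH, UQCR, COX, ATP5 and MT families and CYC1, with pseudogenes left out, and 108 of 34618 genes in the table matched. Of these, 87 are nuclear genes for subunits or close relatives of complexes I to V, 13 are the protein-coding genes of mitochondrial DNA, and 8 are other loci whose symbols share the same stem, such as antisense and readthrough transcripts. The 87 nuclear genes comprise 36 of complex I, 4 of complex II, 9 of complex III, 19 of complex IV (with NDUFA4 and NDUFA4L2) and 19 of complex V (with its inhibitor ATP5IF1).

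The 16 libraries form 4 groups of 4, which are U937 with 10 µM NEL, U937 with the vehicle DMSO, KG1A with 10 µM NEL, and KG1A with DMSO. Both are established acute myeloid leukaemia lines per the labels, KG1A being an immature line known for CD34 and U937 a more mature monocytic one, and the medium of all groups was RPMI with dialyzed fetal bovine serum. The labels give neither the time of treatment nor the full name behind the abbreviation NEL. The title of the series concerns deoxynucleotide supply, ribonucleotide reductase and the differentiation block of this leukaemia. RNA was selected by its polyA tail and counted per gene, with totals of 10641567 to 11777684 counts per library. Whether the 4 libraries of a group are separate cultures is not stated. The p-values therefore cover only library-to-library spread, and part or all of it may be technical.

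Oxidative phosphorylation passes electrons from NADH and succinate along complexes I to IV of the inner mitochondrial membrane to oxygen, and the proton gradient this builds drives ATP synthesis by complex V. Every one of these complexes except complex II combines subunits made from nuclear genes with subunits made inside the organelle from mitochondrial DNA. The nuclear genes are transcribed one by one, many from promoters with sites for NRF1 and ETS family factors such as GABP, while mitochondrial DNA is copied into long precursors from both strands that are then cut into mRNAs.

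Levels are given as CPM, counts scaled to a common library total with TMM factors over all 16 libraries. Levels of different genes are compared only as RPKM, which also divides by the total exon length annotated for the gene. Fold changes are log2 values from edgeR's quasi-likelihood test, fitted on all genes that passed a filter on low counts, and a gene is called higher or lower where its p-value, adjusted over all genes tested, is under 0.05. A gene with 0 counts in a library could be present at up to 0.255 to 0.282 CPM there, the level of 3 counts, and this covers counting error only. The lines carried their defining markers. CD34 summed to 39 and 15 counts in U937 with NEL and U937 with DMSO against 43188 and 38270 in KG1A with NEL and KG1A with DMSO. CD4 and LYZ were high in U937, and the markers of red cells and epithelium HBB and KRT18 were at 0 counts in all libraries. In bulk RNA, fewer cells of a type and less RNA per cell cannot be told apart. Libraries 1 and 3 stood apart from libraries 2 and 4 for some of these genes in every group, and the labels do not say why. Of 92 members with a mean of at least 5 CPM, 38 had the odd and the even libraries apart in all 4 groups. Between the sets, 4 of the 92 differed by more than 1.5-fold. Shares over all genes were not computed, so these counts are not read as particular to these genes.

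After NEL most of the nuclear subunit genes that were called were lower, in U937 and in KG1A, with more of them called in U937. In U937, 52 of the 80 nuclear genes tested were called lower and 5 higher, against 34.7% called lower and 34.6% called higher among all genes tested. In KG1A, 29 of 79 were called lower and 4 higher, against 23.6% and 23.6% of all genes. The median log2 fold change of the nuclear genes was -0.28 in U937 and -0.13 in KG1A, beside medians near 0 over all genes tested in each line. The shifts were small per gene: 65 of 80 log2 values in U937 and 66 of 79 in KG1A lay below 0, and 50 of 80 genes in U937 and 31 of 79 in KG1A had all NEL libraries on one side of all DMSO libraries. These shares, 62.5% and 39.2%, were near the 62.4% and 42.2% of all genes tested that were so separated. With the library number as a block, the counts became 61 lower and 8 higher in U937 (38.0% and 37.6% of all genes). In KG1A they became 42 lower and 8 higher (29.7% and 28.8%). The labels do not say that same-numbered libraries belong together. The small counts of genes called higher moved with single libraries. In U937 the count was 3 without DMSO library 1, 3 without DMSO library 3 and 2 without NEL library 2. In KG1A it was 2 without DMSO library 1, DMSO library 4 or NEL library 2, and 1 without DMSO library 3 or NEL library 4.

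**Figure D1:**
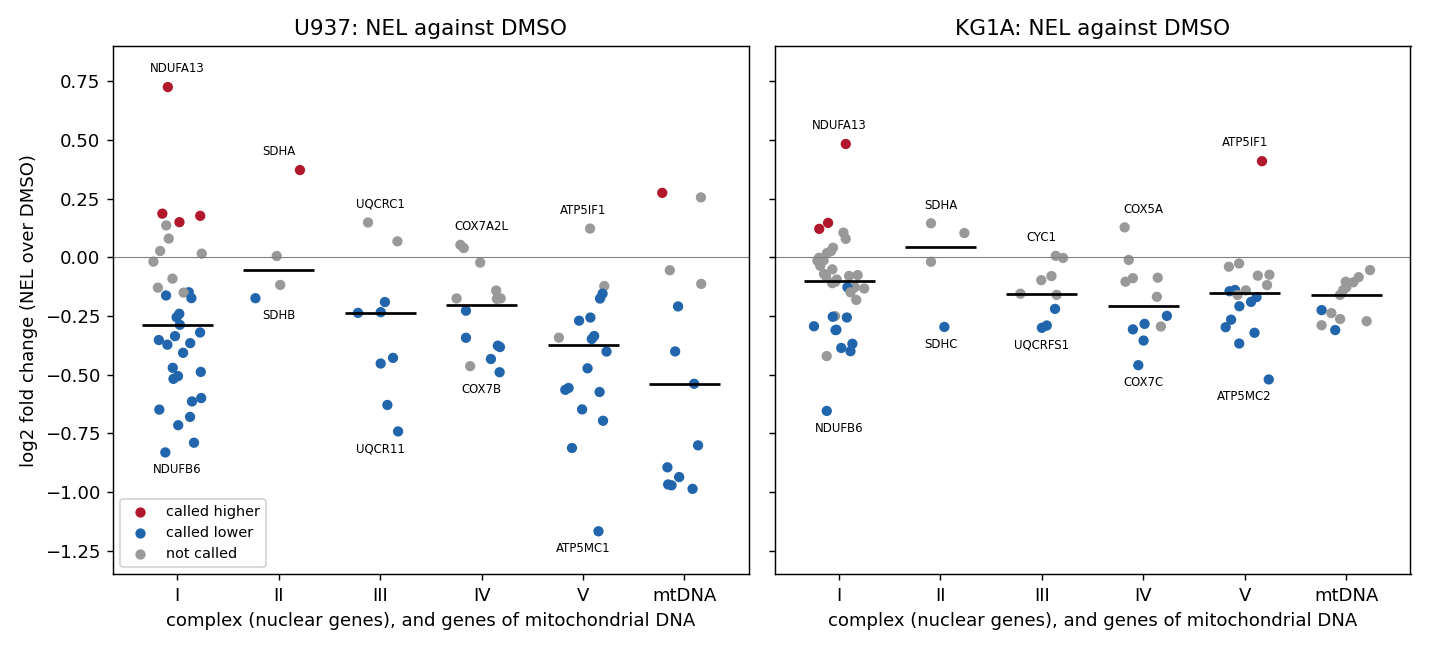
Log2 fold change of NEL over DMSO for each nuclear subunit gene tested, by complex, and for the 13 genes of mitochondrial DNA, in U937 (left) and KG1A (right); each point is a gene coloured by its call, and the bar is the median. Most points of complexes I, III, IV and V lie below 0 in both lines, while NDUFA13 and SDHA lie highest in U937 and NDUFA13 and ATP5IF1 in KG1A.

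The test of the difference between the lines, U937 minus KG1A, called 33 of 81 nuclear genes lower, that is, with the more negative NEL effect in U937, and 2 higher, against 26.3% and 21.1% of all genes. Scaled by DESeq2's size factors the split was 25 lower and 8 higher, against 21.6% and 25.6% of all genes, and by upper quartile factors 26 and 7, against 22.6% and 24.8%. The median of this difference over the nuclear genes was -0.17, and over all genes -0.03. With the block, 41 were lower and 10 higher, against 30.1% and 24.5%. The count of 2 became 1 without KG1A DMSO library 4, KG1A NEL library 1, KG1A NEL library 2 or U937 NEL library 3, and 5 without KG1A NEL library 4. Among the 78 nuclear genes tested in both lines, 26 were called lower in both, against 12.6% of all genes, 1 was called higher in both, against 11.7%, and 2 were called with opposite signs, against 11.1%.

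**Figure D2:**
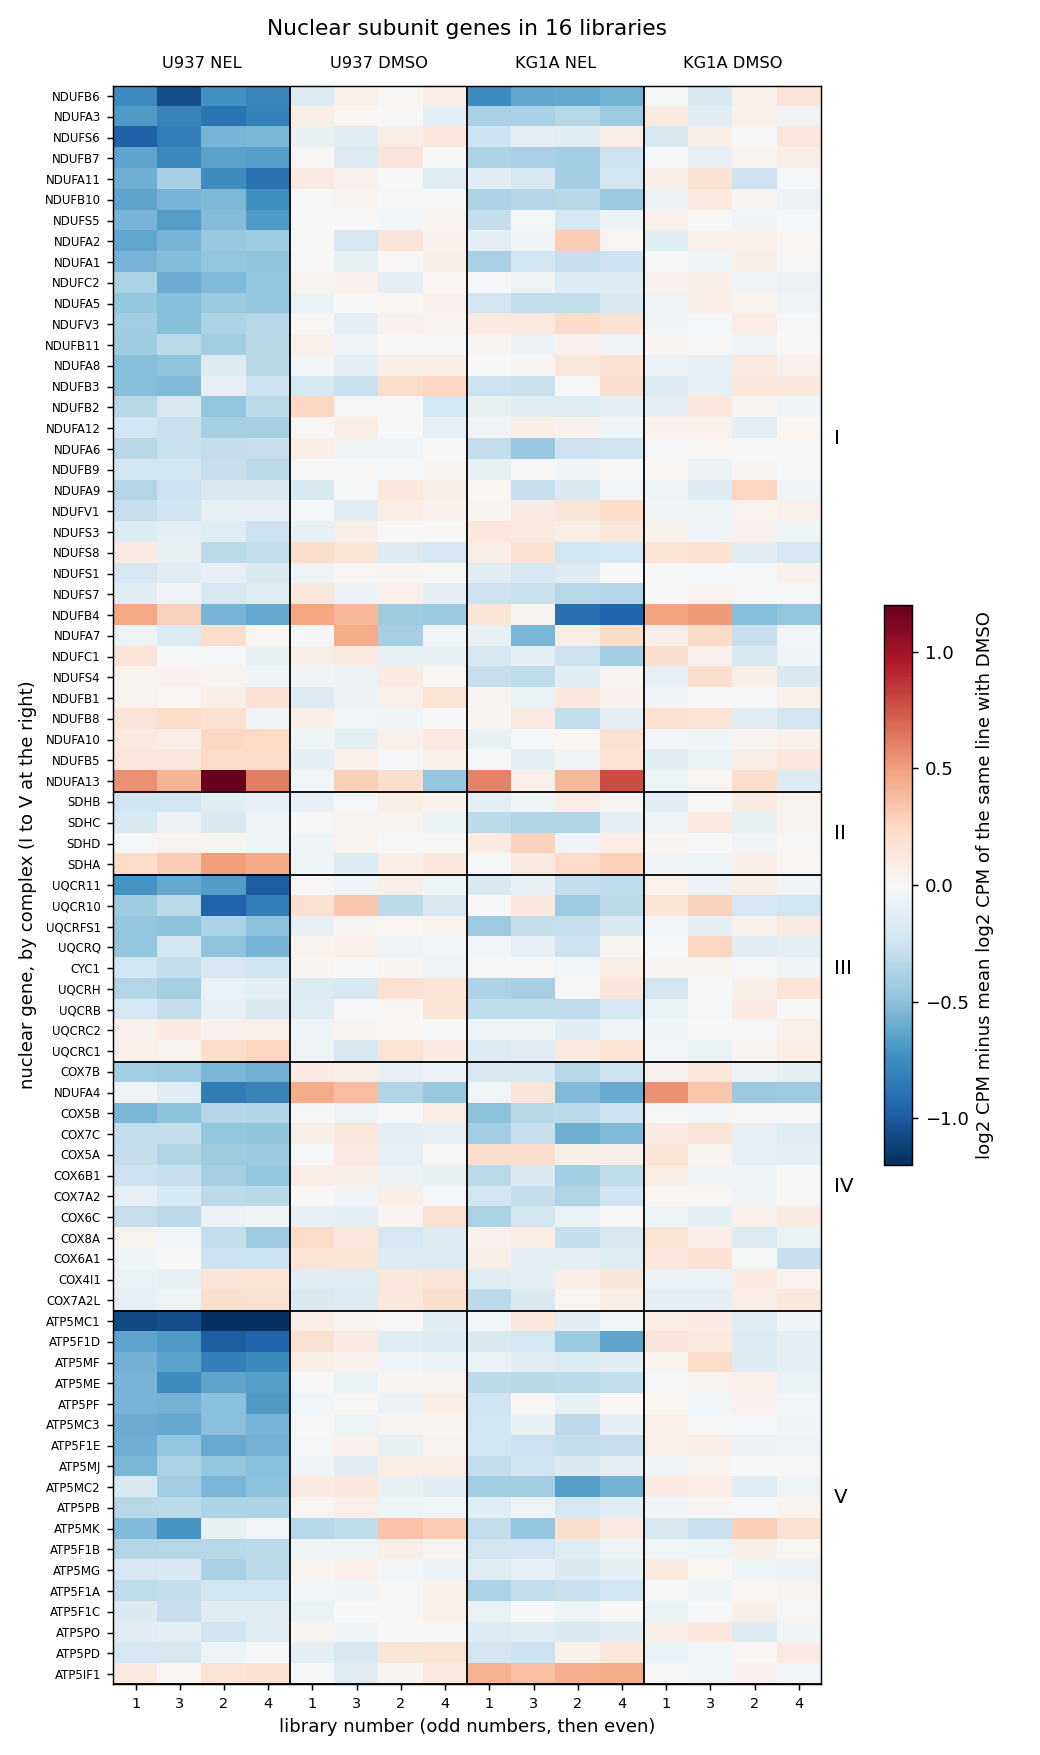
Log2 CPM of 77 nuclear subunit genes in 16 libraries, each minus the mean of the same line with DMSO, ordered by complex and within it by the fold change in U937; columns are libraries, odd numbers before even ones within each group, and blue is below and red above the DMSO mean. The U937 NEL libraries form the broadest blue block, the KG1A NEL libraries a paler one, and NDUFB4 and NDUFA4 alternate between odd and even libraries in every group.

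Complex I, the NADH dehydrogenase and the point where electrons from NADH enter, is the largest set, with 36 of the 87 nuclear genes. In U937, 23 of 35 nuclear genes of complex I were called lower, 65.7% against 34.7% of all genes. Another 4 were called higher, 11.4% against 34.6% of all genes. In KG1A 10 of 36 were lower, 27.8% and so near the 23.6% of all genes. Another 3 were higher, 8.33% against 23.6% of all genes. Of the accessory subunits, which surround the core and have no redox group, 20 of 29 were called lower in U937 with a median of -0.35. Of the core subunits 3 of 6 were, with a median of -0.15. In KG1A the counts were 8 of 29 accessory and 2 of 7 core subunits called lower, and the medians were -0.11 and -0.07. No test was made of accessory against core subunits.

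NDUFB6, an accessory subunit of the membrane arm, was among the genes that fell most in both lines. It had 10.5, 10.7, 8.53 and 10.2 CPM in U937 with NEL, against 15.8, 18.1, 18.6 and 18.8 CPM in U937 with DMSO. It had 8.30, 9.09, 9.02 and 9.39 CPM in KG1A with NEL, against 13.7, 14.6, 12.3 and 15.5 CPM in KG1A with DMSO. NEL and DMSO libraries did not overlap in either line, and the log2 fold changes were -0.83 ± 0.09 (SE, edgeR adjusted p = 2.51e-06) in U937 and -0.65 ± 0.10 (SE, edgeR adjusted p = 6.86e-05) in KG1A.

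NDUFA3, another accessory subunit of the membrane arm, had 43.9, 38.2, 40.1 and 39.9 CPM in U937 with NEL, against 74.4, 70.6, 71.1 and 65.0 CPM in U937 with DMSO. All U937 NEL libraries lay below all U937 DMSO libraries, with a log2 fold change of -0.79 ± 0.06 (SE, edgeR adjusted p = 3.21e-08). It averaged 25.8 ± 0.673 CPM in KG1A with NEL and 33.9 ± 2.48 CPM in KG1A with DMSO (SD, n = 4 each), a log2 fold change of -0.40 ± 0.06 (SE, edgeR adjusted p = 0.000141). The difference between the lines was -0.40 ± 0.09 (SE, edgeR adjusted p = 0.00053). Its promoter is shown as one of the 15 among the 69 nuclear members with a promoter in the RefSeq table (GRCh38.p14, 250 bases before the gene's start) that hold the NRF1 motif, searched on both strands. That is 21.7%, against 5.53% of 27305 promoters in the table. The capitals mark its 2 matches, read 5′ to 3′ from chr19:54102605-54102854 on the plus strand.
NDUFA3: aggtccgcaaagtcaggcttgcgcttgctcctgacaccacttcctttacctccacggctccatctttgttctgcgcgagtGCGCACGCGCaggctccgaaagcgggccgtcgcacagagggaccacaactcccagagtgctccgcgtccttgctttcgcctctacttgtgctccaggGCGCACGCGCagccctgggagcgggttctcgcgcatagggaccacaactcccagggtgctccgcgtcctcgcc
The ETS motif CCGGAAG was in 17 of the 69 promoters, 24.6% against 8.82% of all. In U937 the members called lower held the NRF1 motif in 10 of 43 promoters and the other members tested in 5 of 22, that is 23.3% and 22.7%. The ETS motif was in 25.6% and 27.3%. A match of letters is not a binding site.

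NDUFS6 and NDUFA2, accessory subunits of the matrix arm that takes up NADH, were the 2 genes of complex I with the most negative difference between lines. NDUFS6 had 34.1, 45.3, 37.5 and 45.7 CPM in U937 with NEL, against 62.8, 70.9, 61.2 and 72.9 CPM in U937 with DMSO. The groups did not overlap, and the log2 fold change was -0.72 ± 0.09 (SE, edgeR adjusted p = 7.19e-06). In KG1A it was -0.11 ± 0.08 (SE, edgeR adjusted p = 0.282), a difference of -0.62 ± 0.13 (SE, edgeR adjusted p = 0.000514). NDUFA2 averaged 18.4 ± 1.14 CPM in U937 with NEL and 26.4 ± 2.64 CPM in U937 with DMSO, and 12.2 ± 1.60 CPM in KG1A with NEL and 11.8 ± 0.796 CPM in KG1A with DMSO (SD, n = 4 each). It had a difference between lines of -0.57 ± 0.13 (SE, edgeR adjusted p = 0.00127).

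NDUFV3, a small accessory subunit at the NADH site, and NDUFV1, the core subunit that binds NADH and the flavin, were the 2 nuclear genes called in opposite directions. NDUFV3 had 38.2, 39.5, 35.8 and 40.4 CPM in U937 with NEL, against 51.6, 52.8, 47.4 and 52.7 CPM in U937 with DMSO. It had 45.3, 49.0, 45.7 and 47.4 CPM in KG1A with NEL, against 40.8, 44.8, 41.6 and 41.4 CPM in KG1A with DMSO. All NEL libraries lay below all DMSO libraries in U937 and above them in KG1A, with log2 fold changes of -0.41 ± 0.06 (SE, edgeR adjusted p = 2.11e-05) in U937 and 0.15 ± 0.05 (SE, edgeR adjusted p = 0.0309) in KG1A. The difference was -0.56 ± 0.07 (SE, edgeR adjusted p = 1.89e-06). NDUFV1 changed by -0.17 ± 0.06 (SE, edgeR adjusted p = 0.0159) in U937 and 0.12 ± 0.04 (SE, edgeR adjusted p = 0.0382) in KG1A, with a difference of -0.31 ± 0.08 (SE, edgeR adjusted p = 0.00209). Both rises in KG1A were small, and each lost its call without any one of KG1A DMSO libraries 1 and 3 and KG1A NEL libraries 2 and 4 (for NDUFV3 also DMSO library 4). The fall of NDUFV1 in U937 lost its call without U937 NEL library 1, while both differences between the lines kept theirs.

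NDUFB5, a membrane-arm accessory subunit, had 54.6, 58.1, 54.5 and 58.0 CPM in U937 with NEL, against 46.0, 49.1, 51.6 and 51.8 CPM in U937 with DMSO. It was the gene of complex I with the largest rise in U937 whose groups did not overlap and whose level reached 5 CPM, 0.19 ± 0.05 (SE, edgeR adjusted p = 0.00627). The larger fold of NDUFA13 in the plot by complex, 0.72 ± 0.23 in U937 and 0.48 ± 0.19 in KG1A, rests on few counts. It averaged 2.94 ± 0.781 CPM in U937 with NEL and 1.78 ± 0.407 CPM in U937 with DMSO, and 3.49 ± 0.749 CPM in KG1A with NEL and 2.49 ± 0.289 CPM in KG1A with DMSO (SD, n = 4 each), and overlaps YJEFN3 on the same strand. NDUFV2, a core subunit with an iron-sulphur cluster, was under the filter in U937 at 0.559 ± 0.148 CPM in U937 with NEL and 0.489 ± 0.0488 CPM in U937 with DMSO.

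Complex II, succinate dehydrogenase, links the citrate cycle to the respiratory chain and has no mitochondrially encoded subunit. Its 4 genes did not move together. SDHA, the flavoprotein that oxidises succinate, had 166, 202, 175 and 195 CPM in U937 with NEL, against 138, 151, 127 and 156 CPM in U937 with DMSO. All U937 NEL libraries exceeded all U937 DMSO libraries, with a log2 fold change of 0.37 ± 0.07 (SE, edgeR adjusted p = 0.000355). SDHA averaged 125 ± 11.1 CPM in KG1A with NEL and 112 ± 5.05 CPM in KG1A with DMSO (SD, n = 4 each), with 0.14 ± 0.06 (SE, edgeR adjusted p = 0.0523), and with the block 0.14 ± 0.03 (edgeR adjusted p = 3.18e-05). The difference between the lines was 0.22 ± 0.10 (SE, edgeR adjusted p = 0.081), and with the block 0.22 ± 0.05 (edgeR adjusted p = 2.54e-05).

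SDHB, the iron-sulphur subunit, moved the other way in U937. It had 145, 156, 146 and 159.8 CPM in U937 with NEL, against 159.8, 181, 168 and 178 CPM in U937 with DMSO. The highest NEL library lay just below the lowest DMSO library, with a log2 fold change of -0.17 ± 0.05 (SE, edgeR adjusted p = 0.00632). In KG1A it was -0.02 ± 0.06 (SE, edgeR adjusted p = 0.823), and the difference between the lines was -0.17 ± 0.08 (SE, edgeR adjusted p = 0.0952), with the block -0.17 ± 0.06 (edgeR adjusted p = 0.00728). SDHC, one of the membrane anchors, had -0.12 ± 0.06 (SE, edgeR adjusted p = 0.0937) in U937 and was called lower in KG1A at -0.30 ± 0.09 (SE, edgeR adjusted p = 0.0124). SDHD, the other anchor, had 0.01 ± 0.04 (SE, edgeR adjusted p = 0.922) in U937 and 0.10 ± 0.06 (SE, edgeR adjusted p = 0.148) in KG1A, which with the block was 0.10 ± 0.03 (edgeR adjusted p = 0.00373).

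The promoter of SDHA (RefSeq, GRCh38.p14, chr5:218070-218319, plus strand) is shown because it held the most matches of the NRF1 motif among the nuclear members, 4; the capitals mark them.
SDHA: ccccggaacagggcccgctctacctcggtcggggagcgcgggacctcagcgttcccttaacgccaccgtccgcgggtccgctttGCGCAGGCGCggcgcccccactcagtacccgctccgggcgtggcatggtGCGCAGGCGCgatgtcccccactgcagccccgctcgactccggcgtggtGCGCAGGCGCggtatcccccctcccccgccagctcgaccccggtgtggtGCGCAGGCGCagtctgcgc

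Complex III passes electrons from ubiquinol to cytochrome c. In U937, 7 of its 9 nuclear genes were called lower and 0 higher, and in KG1A 3 were lower and 0 higher, 77.8% and 33.3% lower against 34.7% and 23.6% of all genes. All 5 genes of the small subunits were lower in U937, with a median of -0.43, as were 2 of the 4 genes for the redox and core proteins, whose median was -0.08. In KG1A 2 of the 5 and 1 of the 4 were lower.

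UQCR11, a small subunit, had 12.2, 12.6, 13.1 and 10.0 CPM in U937 with NEL, against 20.3, 21.3, 19.3 and 19.4 CPM in U937 with DMSO. The groups were well apart, with a log2 fold change of -0.74 ± 0.09 (SE, edgeR adjusted p = 4.55e-06). In KG1A the fold change was -0.22 ± 0.08 (SE, edgeR adjusted p = 0.0268). That call was lost without any one of KG1A DMSO libraries 1 and 2 and KG1A NEL libraries 2 and 4. The difference between the lines was -0.53 ± 0.11 (SE, edgeR adjusted p = 0.000512). UQCR10 had 52.1, 36.0, 56.5 and 39.5 CPM in U937 with NEL, against 79.5, 56.5, 87.8 and 61.6 CPM in U937 with DMSO. It was lower in U937, at -0.63 ± 0.15 (SE, edgeR adjusted p = 0.00182), although its odd libraries exceeded its even ones in both U937 groups. UQCRQ was lower in U937 at -0.43 ± 0.08 (SE, edgeR adjusted p = 0.000231). Its difference between lines, -0.34 ± 0.13 (SE, edgeR adjusted p = 0.0351), was not called when any of 10 single libraries was left out.

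UQCRFS1, the Rieske iron-sulphur protein, fell in both lines. It averaged 104 ± 3.93 CPM in U937 with NEL and 143 ± 6.43 CPM in U937 with DMSO, and 90.6 ± 6.48 CPM in KG1A with NEL and 111 ± 7.58 CPM in KG1A with DMSO (SD, n = 4 each). The log2 fold changes were -0.45 ± 0.05 (SE, edgeR adjusted p = 8.42e-07) in U937 and -0.30 ± 0.06 (SE, edgeR adjusted p = 0.000689) in KG1A. CYC1, the cytochrome of the complex, was lower in U937 at -0.24 ± 0.04 (SE, edgeR adjusted p = 0.000106) and had 0.01 ± 0.04 (SE, edgeR adjusted p = 0.917) in KG1A. The core proteins UQCRC1 and UQCRC2 were not called in either line, with 0.15 ± 0.07 and 0.07 ± 0.04 in U937 and 0.00 ± 0.07 and -0.08 ± 0.04 in KG1A. With the block both were called higher in U937, at 0.15 ± 0.03 (edgeR adjusted p = 4.35e-06) and 0.07 ± 0.03 (edgeR adjusted p = 0.0174), and UQCRC2 lower in KG1A, at -0.08 ± 0.03 (edgeR adjusted p = 0.0052). UQCRB, a small subunit, was lower in U937 at -0.19 ± 0.06 (SE, edgeR adjusted p = 0.0112) and in KG1A at -0.29 ± 0.04 (SE, edgeR adjusted p = 7.08e-05). Its antisense neighbour UQCRB-AS1 was lower in KG1A as well, at -0.37 ± 0.07 (SE, edgeR adjusted p = 0.000569). Reads of the pair cannot be told apart, because whether counting used strand is not given in the sources used here. UQCRHL, a relative of UQCRH, is not analysed here. UQCRH itself had -0.23 ± 0.09 in U937 and -0.16 ± 0.11 in KG1A, and only the first was called. The U937 call was lost by limma-trend, in one model of all libraries, by upper quartile factors and without any one of U937 NEL libraries 1 and 3 and U937 DMSO libraries 2 and 4, with adjusted p of 0.0607 to 0.273. In KG1A it was called lower in 5 alternatives, among them the block.

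Complex IV, cytochrome c oxidase, reduces oxygen. In U937 6 of the 14 nuclear genes tested were called lower and 0 higher, and in KG1A 5 of 12 were lower and 0 higher. These are 42.9% lower in U937, not far from the 34.7% of all genes, and 41.7% in KG1A against 23.6%. The difference between the lines was called for 2 of 14 genes, COX5A and COX7B, a smaller share than the 26.3% of all genes with a more negative effect in U937. With the block it was also called for NDUFA4, at -0.18 ± 0.07 (edgeR adjusted p = 0.0336), and COX7A2L, at 0.15 ± 0.05 (edgeR adjusted p = 0.0139).

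COX5B, a zinc-binding subunit, had 120.0, 138, 125 and 137 CPM in U937 with NEL, against 174, 173, 168 and 187 CPM in U937 with DMSO. It had 35.9, 40.5, 40.0 and 42.6 CPM in KG1A with NEL, against 50.9, 51.3, 49.4 and 50.9 CPM in KG1A with DMSO. Both lines had their NEL libraries wholly below their DMSO libraries, with log2 fold changes of -0.43 ± 0.05 (SE, edgeR adjusted p = 5.43e-06) in U937 and -0.35 ± 0.06 (SE, edgeR adjusted p = 0.000109) in KG1A. COX7C, a small subunit in the membrane, was lower likewise at -0.38 ± 0.07 in U937 and -0.46 ± 0.08 in KG1A. COX6B1 was lower at -0.34 ± 0.06 in U937 and -0.31 ± 0.05 in KG1A, and COX7A2 at -0.23 ± 0.06 in U937 and -0.28 ± 0.05 in KG1A. COX7B, another small membrane subunit, was lower at -0.49 ± 0.06 in U937 and -0.25 ± 0.06 in KG1A, and its difference of -0.25 ± 0.08 (SE, edgeR adjusted p = 0.0171) was no longer called when scaled by DESeq2's size factors or upper quartile factors.

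COX5A, a matrix-side subunit, had the larger difference of the 2 genes called. It had 193, 175, 184 and 173 CPM in U937 with NEL, against 231, 221, 254 and 238 CPM in U937 with DMSO, without overlap, and a log2 fold change of -0.38 ± 0.05 (SE, edgeR adjusted p = 1.27e-05). It averaged 109 ± 5.60 CPM in KG1A with NEL and 99.2 ± 8.74 CPM in KG1A with DMSO (SD, n = 4 each), a log2 fold change of 0.13 ± 0.06 (SE, edgeR adjusted p = 0.087), and with the block 0.13 ± 0.03 (edgeR adjusted p = 0.000432). The difference was -0.51 ± 0.08 (SE, edgeR adjusted p = 1.81e-05).

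Several subunits of complex IV exist as alternative forms, and the forms usually found in muscle, lung or testis were close to absent. COX4I2, COX6A2, COX6B2 and COX7A1 reached at most 0.511 CPM in any library, and COX7B2 had 0 counts in all 16, so none could be tested. Of the forms used by most tissues, COX4I1 had 0.04 ± 0.08 in U937 and -0.01 ± 0.06 in KG1A, and COX6A1 -0.14 ± 0.09 in U937 and -0.09 ± 0.09 in KG1A. COX7A2L, which joins complexes III and IV, had 0.05 ± 0.09 in U937 and -0.10 ± 0.08 in KG1A, and COX8A -0.18 ± 0.11 in U937 and -0.09 ± 0.08 in KG1A. None of these 8 values was called. With the block COX6A1 was called lower in U937 and COX7A2L in KG1A, and COX8A in both. COX8C, the testis form, was the exception. It had 358 counts in U937 with NEL and 352 in U937 with DMSO, against 1 count in KG1A with NEL and 0 in KG1A with DMSO.

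NDUFA4, first described with complex I and now counted with complex IV, differed between the library sets. It had 54.7, 31.3, 51.4 and 32.2 CPM in U937 with NEL, against 76.9, 43.8, 72.7 and 41.0 CPM in U937 with DMSO, odd libraries 1 and 3 being higher than even libraries 2 and 4 within each group. The groups overlapped and the log2 fold change of -0.46 ± 0.22 (SE, edgeR adjusted p = 0.0699) was not called. With the block it was -0.46 ± 0.05 (edgeR adjusted p = 5.08e-12) in U937 and -0.29 ± 0.05 (edgeR adjusted p = 6.43e-07) in KG1A. NDUFB4 of complex I had the same pattern, with 119.8, 58.8, 105 and 56.7 CPM in U937 with NEL, against 121, 64.3, 114 and 63.9 CPM in U937 with DMSO. NDUFA4L2, a relative of NDUFA4, was low, at 5.76 ± 0.520 CPM in U937 with NEL and 6.52 ± 0.986 CPM in U937 with DMSO (SD, n = 4 each).

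**Figure D3:**
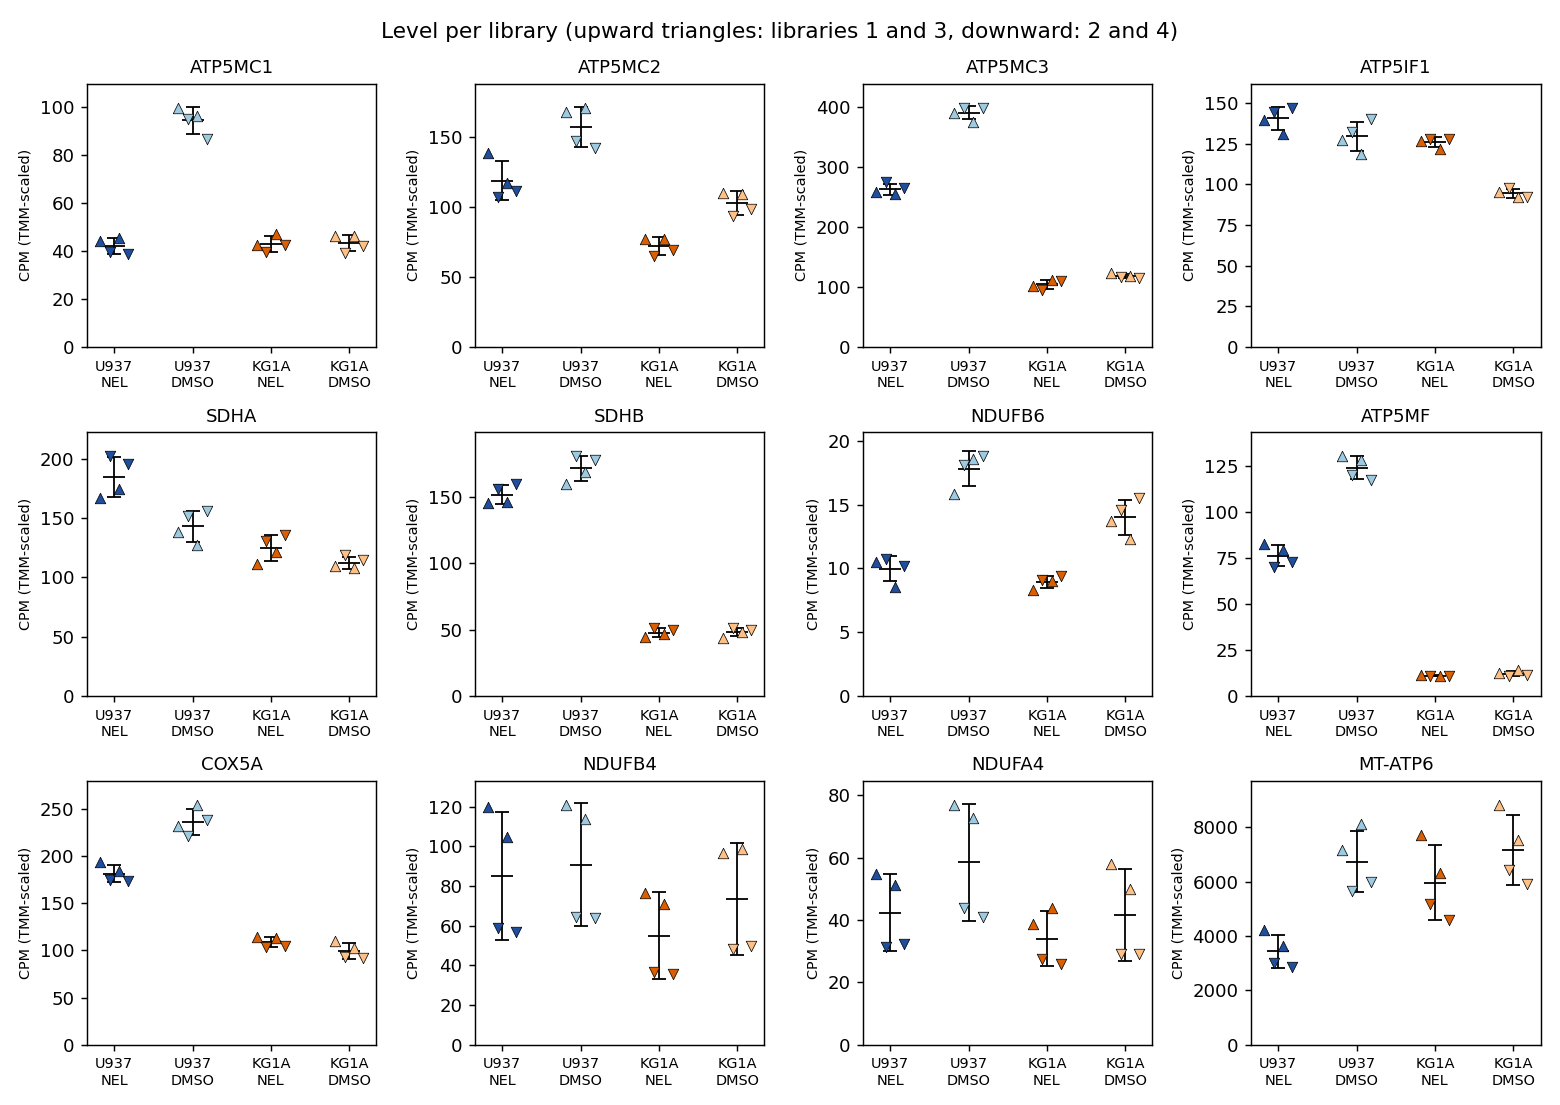
Level in CPM of 12 subunit genes in every library of the 4 groups; upward triangles are libraries 1 and 3, downward ones libraries 2 and 4, and the bars give mean ± SD (n = 4). ATP5MC1 is lower in U937 with NEL than with DMSO and level in KG1A, ATP5IF1 is higher in KG1A with NEL, ATP5MF is high in U937 alone, and NDUFB4 and NDUFA4 split by library number.

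Complex V, the ATP synthase, had the largest share of genes called lower in U937, 15 of 18, with 0 called higher. In KG1A 10 of 18 were lower and 1 higher. The shares called lower were 83.3% in U937 and 55.6% in KG1A, against 34.7% and 23.6% of all genes. All 5 genes of the catalytic head, all 3 of the c ring, 3 of 4 of the peripheral stalk and 4 of 5 of the small membrane subunits were lower in U937. Their medians were -0.34, -0.56, -0.25 and -0.47. In KG1A the counts were 4 of 5, 2 of 3, 1 of 4 and 3 of 5.

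The c ring, which turns as protons pass, is made from 3 genes, ATP5MC1, ATP5MC2 and ATP5MC3, that are known to encode the same mature protein behind different import sequences. ATP5MC1 had 44.3, 39.4, 45.3 and 38.7 CPM in U937 with NEL, against 99.8, 95.1, 96.2 and 86.5 CPM in U937 with DMSO, the largest fall of any nuclear member in U937. Its U937 NEL libraries were all under the lowest U937 DMSO library, 2.25-fold lower by the fit, with a log2 fold change of -1.17 ± 0.06 (SE, edgeR adjusted p = 1.56e-09). It had 42.4, 39.4, 47.2 and 42.5 CPM in KG1A with NEL, against 46.2, 39.3, 46.3 and 42.1 CPM in KG1A with DMSO. Those groups overlapped, with -0.03 ± 0.07 (SE, edgeR adjusted p = 0.773), and the difference between the lines was -1.15 ± 0.10 (SE, edgeR adjusted p = 2.44e-09). With NEL, U937 thus averaged 41.9 ± 3.35 CPM of ATP5MC1 and KG1A 42.9 ± 3.21 CPM (SD, n = 4 each).

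ATP5MC2 had 138, 107, 117 and 111 CPM in U937 with NEL, against 168, 147, 171 and 142 CPM in U937 with DMSO, and 76.8, 64.7, 77.4 and 69.1 CPM in KG1A with NEL, against 110.1, 93.3, 109 and 98.4 CPM in KG1A with DMSO. It was lower with NEL in both lines without overlap, at -0.40 ± 0.08 (SE, edgeR adjusted p = 0.00043) in U937 and -0.52 ± 0.07 (SE, edgeR adjusted p = 1.66e-05) in KG1A. Its difference of 0.11 ± 0.11 (SE, edgeR adjusted p = 0.468) was not called. ATP5MC3 averaged 263 ± 9.15 CPM in U937 with NEL and 390.3 ± 11.3 CPM in U937 with DMSO, and 104 ± 7.36 CPM in KG1A with NEL and 118 ± 3.86 CPM in KG1A with DMSO (SD, n = 4 each). Its fold changes were -0.56 ± 0.04 (SE, edgeR adjusted p = 2.73e-08) in U937, -0.19 ± 0.05 (SE, edgeR adjusted p = 0.00555) in KG1A and a difference of -0.38 ± 0.06 (SE, edgeR adjusted p = 3.41e-05). Per length, ATP5MC1 had 16.5 ± 1.25 RPKM in U937 with NEL and 34.8 ± 2.22 RPKM in U937 with DMSO. ATP5MC2 had 30.5 ± 3.41 RPKM in U937 with NEL and 37.9 ± 3.46 RPKM in U937 with DMSO, and ATP5MC3 40.0 ± 1.49 RPKM in U937 with NEL and 55.5 ± 1.83 RPKM in U937 with DMSO (SD, n = 4 each). ATP5MC3 was the highest of the 3 in U937 in both conditions. ATP5MC1 had 16.8 ± 1.24 RPKM in KG1A with NEL and 16.3 ± 1.21 RPKM in KG1A with DMSO. ATP5MC2 had 18.4 ± 1.47 RPKM in KG1A with NEL and 25.3 ± 1.93 RPKM in KG1A with DMSO, and ATP5MC3 15.7 ± 1.15 RPKM in KG1A with NEL and 17.1 ± 0.418 RPKM in KG1A with DMSO. Their KG1A means with NEL lay between 15.7 and 18.4 RPKM. These values depend on the annotated exon lengths, 2615 bases for ATP5MC1, 3991 for ATP5MC2 and 6780 for ATP5MC3. Those need not be the lengths of the mRNAs.

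The promoters of ATP5MC1 and ATP5MC2 are shown because these genes share a product and responded differently. Both are the 250 bases before the gene's start in RefSeq (GRCh38.p14), chr17:48892537-48892786 on the plus strand and chr12:53676084-53676333 on the minus strand, printed 5′ to 3′ along the gene. Neither holds the NRF1 motif, so no letters are in capitals. The table used holds no promoter for ATP5MC3.
ATP5MC1: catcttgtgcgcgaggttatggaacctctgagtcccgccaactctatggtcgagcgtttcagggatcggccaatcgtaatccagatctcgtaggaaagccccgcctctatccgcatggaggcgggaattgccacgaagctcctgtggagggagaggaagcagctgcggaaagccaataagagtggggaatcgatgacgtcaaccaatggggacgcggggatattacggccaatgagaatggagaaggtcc
ATP5MC2: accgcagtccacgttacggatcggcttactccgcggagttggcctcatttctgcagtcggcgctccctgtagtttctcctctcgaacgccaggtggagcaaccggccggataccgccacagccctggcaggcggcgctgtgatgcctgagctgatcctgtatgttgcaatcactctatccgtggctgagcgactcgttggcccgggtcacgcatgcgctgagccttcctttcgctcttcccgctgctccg

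Among the genes of the head, ATP5F1D, the delta subunit of the central stalk, fell most. It had 50.4, 39.3, 48.8 and 40.4 CPM in U937 with NEL, against 89.1, 71.3, 83.9 and 70.4 CPM in U937 with DMSO. The groups did not overlap within U937, and the log2 fold changes were -0.81 ± 0.09 (SE, edgeR adjusted p = 2.86e-06) in U937 and -0.37 ± 0.09 (SE, edgeR adjusted p = 0.0047) in KG1A. The difference was -0.45 ± 0.15 (SE, edgeR adjusted p = 0.0134). ATP5F1A and ATP5F1B, the alpha and beta subunits that form the catalytic ring, fell by less, at -0.26 ± 0.04 and -0.34 ± 0.04 in U937 and -0.30 ± 0.04 and -0.17 ± 0.04 in KG1A. ATP5F1E, the epsilon subunit, was lower at -0.56 ± 0.05 in U937 and -0.27 ± 0.05 in KG1A.

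Of the peripheral stalk, which holds the head still, ATP5PF was lower at -0.57 ± 0.05, ATP5PB at -0.35 ± 0.04 and ATP5PO at -0.16 ± 0.05 in U937, and ATP5PD had -0.12 ± 0.08 and was not called. ATP5MF, a small membrane subunit, had 82.9, 70.1, 79.6 and 73.0 CPM in U937 with NEL, against 130.3, 120.2, 128 and 117 CPM in U937 with DMSO, a log2 fold change of -0.70 ± 0.06 (SE, edgeR adjusted p = 1.06e-07). It averaged 11.1 ± 0.289 CPM in KG1A with NEL and 12.2 ± 1.501 CPM in KG1A with DMSO (SD, n = 4 each), with -0.14 ± 0.10 (SE, edgeR adjusted p = 0.257). The difference was -0.57 ± 0.11 (SE, edgeR adjusted p = 0.000233). ATP5ME, another, was lower at -0.65 ± 0.06 in U937 and -0.32 ± 0.05 in KG1A. ATP5MG, which helps pair synthase units, was lower at -0.27 ± 0.05 in U937 and -0.14 ± 0.04 in KG1A, the last call being lost without KG1A DMSO library 1.

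ATP5IF1, the small protein that blocks the synthase when it would run backwards, was the 1 gene of complex V called higher, which it was in KG1A. It had 139.7, 144, 131 and 147 CPM in U937 with NEL, against 127, 132, 119 and 140.0 CPM in U937 with DMSO. These groups overlapped, with a log2 fold change of 0.12 ± 0.05 (SE, edgeR adjusted p = 0.0601), which with the block was 0.12 ± 0.03 (edgeR adjusted p = 0.000602). It had 126, 128, 121 and 128 CPM in KG1A with NEL, against 95.3, 97.8, 92.1 and 92.2 CPM in KG1A with DMSO. Those groups did not overlap, with a log2 fold change of 0.41 ± 0.04 (SE, edgeR adjusted p = 1.12e-06). The effect in U937 was the smaller, by a difference of -0.30 ± 0.07 (SE, edgeR adjusted p = 0.00094).

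Mitochondrial DNA encodes subunits of complexes I, III, IV and V, and its 13 protein-coding genes fell unevenly in U937. Of them 9 were called lower in U937 and 1 higher, with a median of -0.54, that is 69.2% lower against 34.7% of all genes. In KG1A 2 were called lower and 0 higher, with a median of -0.16. This share of 15.4% was below the 23.6% of all genes, and all 13 log2 values lay below 0. Together these genes made up 6.53% ± 0.678 of all counts in U937 with NEL and 8.05% ± 1.04 in U937 with DMSO, and 8.54% ± 1.14 in KG1A with NEL and 9.12% ± 0.92 in KG1A with DMSO (SD, n = 4 each). In each group the odd libraries had the higher share, for example 7.09% against 5.96% in U937 with NEL and 8.90% against 7.21% in U937 with DMSO as means of the odd and even libraries.

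**Figure D4:**
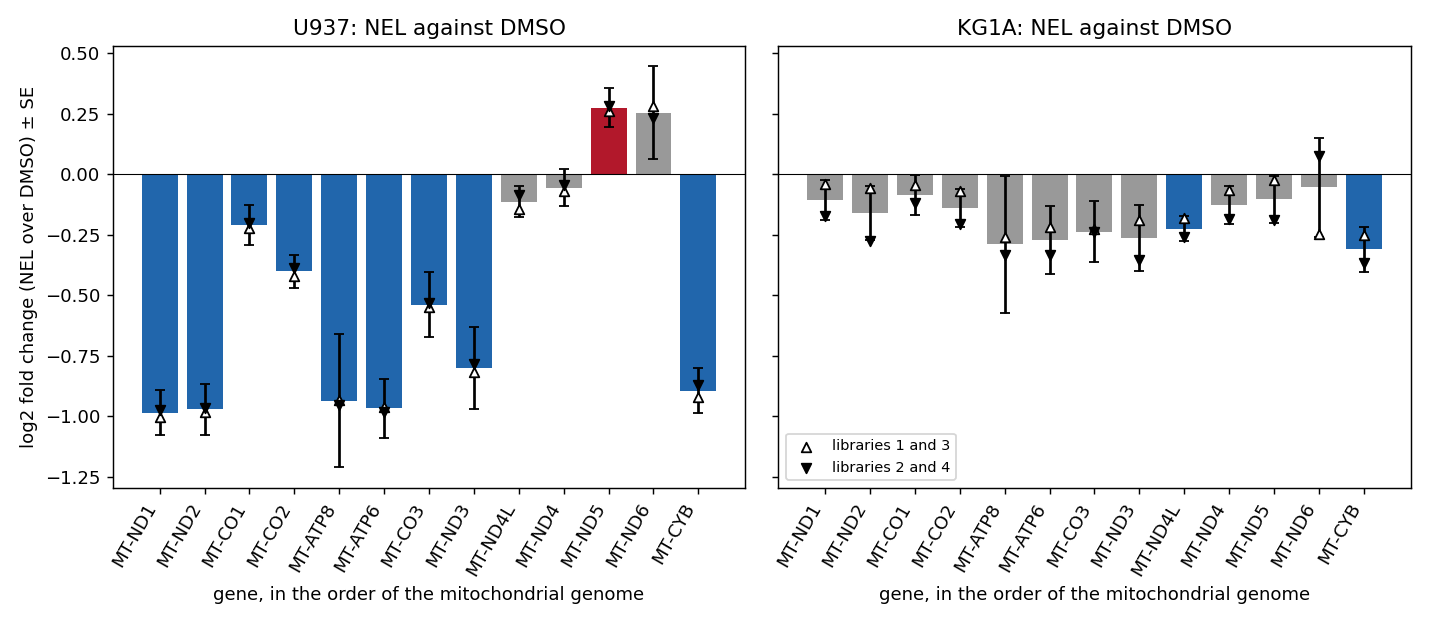
Log2 fold change ± SE of NEL over DMSO for the 13 mitochondrially encoded genes in the order of the mitochondrial genome, in U937 (left) and KG1A (right), blue for called lower, red for called higher and grey for not called; triangles are the fold changes from libraries 1 and 3 alone and 2 and 4 alone. In U937, MT-ND1, MT-ND2, MT-ATP8, MT-ATP6 and MT-CYB lie between -0.99 and -0.89 while MT-ND4L, MT-ND4, MT-ND5 and MT-ND6 lie between -0.11 and 0.27; in KG1A every bar is between 0 and -0.31.

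MT-ND1, a complex I subunit in the membrane, had 3066, 2429.5, 2892 and 2476 CPM in U937 with NEL, against 5619.6, 4630.1, 6319 and 5007 CPM in U937 with DMSO. MT-ATP6, the proton channel subunit of complex V, had 4203, 3022, 3645 and 2870.4 CPM in U937 with NEL, against 7173, 5668, 8117 and 5979.8 CPM in U937 with DMSO. MT-CYB, cytochrome b of complex III, had 2129, 1764, 2018 and 1733 CPM in U937 with NEL, against 3547, 3064, 4304 and 3332 CPM in U937 with DMSO. In all 3 genes every U937 NEL library lay below every U937 DMSO library, and the log2 fold changes were -0.99 ± 0.09 (SE, edgeR adjusted p = 4.28e-07) for MT-ND1, -0.97 ± 0.12 (SE, edgeR adjusted p = 7.94e-06) for MT-ATP6 and -0.89 ± 0.09 (SE, edgeR adjusted p = 1.07e-06) for MT-CYB. MT-ND2 was lower at -0.97 ± 0.11, MT-ATP8 at -0.94 ± 0.28 and MT-ND3 at -0.80 ± 0.17. The U937 groups of MT-ATP8 overlapped, NEL library 1 at 330 CPM exceeding DMSO libraries 2 and 4 at 312 and 289 CPM. The odd libraries of MT-ATP8 lay above its even ones in all 4 groups, at a mean log2 of 1.00.

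The 3 catalytic subunits of complex IV fell by less. MT-CO3 changed by -0.54 ± 0.13 (SE, edgeR adjusted p = 0.00257), MT-CO2 by -0.40 ± 0.07 (SE, edgeR adjusted p = 0.000119) and MT-CO1 by -0.21 ± 0.08 (SE, edgeR adjusted p = 0.0339). MT-CO1 had 15992, 13402, 15228 and 13005 CPM in U937 with NEL, against 17462, 14845, 19003 and 15483 CPM in U937 with DMSO, and its groups overlapped. Its call was lost without any one of U937 DMSO libraries 1 and 3 and U937 NEL libraries 2 and 4, and when scaled by upper quartile factors.

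MT-ND5, a complex I subunit encoded far from MT-ND1, was the 1 mitochondrial gene called higher in U937. It had 4665, 3864, 4454 and 3887 CPM in U937 with NEL, against 3559, 3094, 4049 and 3282 CPM in U937 with DMSO. The groups overlapped, with a log2 fold change of 0.27 ± 0.08 (SE, edgeR adjusted p = 0.00781). Its neighbours MT-ND4 and MT-ND4L had -0.06 ± 0.08 (SE, edgeR adjusted p = 0.543) and -0.11 ± 0.06 (SE, edgeR adjusted p = 0.128), and MT-ND6, the one protein gene transcribed from the light strand, had 0.25 ± 0.19 (SE, edgeR adjusted p = 0.253). With the block MT-ND6 was called higher at 0.26 ± 0.03 (edgeR adjusted p = 2.34e-11). MT-ND4L was then lower at -0.11 ± 0.03 (edgeR adjusted p = 0.000703), which made 10 genes lower and 2 higher. The odd libraries of MT-ND6 lay below its even ones in all 4 groups, at a mean log2 of -0.71. How well polyA selection captured each mitochondrial mRNA was not tested.

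MT-CYB had 6880.5, 5437, 5879 and 4894 CPM in KG1A with NEL, against 8253, 6975, 6933 and 6346 CPM in KG1A with DMSO. Its libraries overlapped, and the log2 fold change of -0.31 ± 0.09 (SE, edgeR adjusted p = 0.0127) was called, as was that of MT-ND4L at -0.23 ± 0.05 (SE, edgeR adjusted p = 0.00268). With the block all 13 genes were called lower in KG1A (29.7% of all genes), at log2 values of -0.32 to -0.09. With the odd libraries alone 7 were called lower, and with the even ones alone 12. MT-ND6 had -0.25 in the odd libraries and 0.07, not called, in the even ones. Without KG1A NEL library 1, the highest of its group for 12 of the 13, 10 genes were called lower.

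The NEL effect on MT-ND1, MT-ND2, MT-ATP6 and MT-CYB was more negative in U937 than in KG1A by tests of the difference, 4 of 13 genes or 30.8%, against 26.3% of all genes. The differences were -0.89 ± 0.14 (SE, edgeR adjusted p = 1.42e-05) for MT-ND1, -0.82 ± 0.17 (SE, edgeR adjusted p = 0.000488) for MT-ND2, -0.70 ± 0.21 (SE, edgeR adjusted p = 0.00872) for MT-ATP6 and -0.59 ± 0.15 (SE, edgeR adjusted p = 0.00185) for MT-CYB. That of MT-ND5 was more positive, at 0.37 ± 0.14 (SE, edgeR adjusted p = 0.038), but this call was lost without any one of 7 of the 16 libraries (U937 NEL 1 and 3, U937 DMSO 2 and 4, KG1A NEL 2 and 4, KG1A DMSO 1). The block made it 9 genes with a more negative effect and 3 with a more positive one.

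Some mitochondrial genes overlap, and their reads can be split only in part. MT-ATP8 and MT-ATP6 share the 46 bases at chrM:8527-8572 and MT-ND4L and MT-ND4 the 7 at chrM:10760-10766 (GRCh38, the positions in the deposited table being the same, plus strand). They are shown with the start codon of the second gene in capitals.
MT-ATP8 and MT-ATP6: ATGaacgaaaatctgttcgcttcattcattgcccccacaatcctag
MT-ND4L and MT-ND4: ATGctaa
Per length, MT-ATP8 was at 21.7% ± 5.29 of MT-ATP6 in U937 with NEL and 21.3% ± 5.24 in U937 with DMSO, and at 22.6% ± 4.70 in KG1A with NEL and 22.9% ± 5.71 in KG1A with DMSO. MT-ND4L was at 35.8% ± 1.05 of MT-ND4 in U937 with NEL and 37.2% ± 0.785 in U937 with DMSO, and at 38.5% ± 2.03 in KG1A with NEL and 41.2% ± 1.68 in KG1A with DMSO (SD, n = 4 each). Each pair is known to lie on a shared mRNA. As groups of 4, the NEL and DMSO libraries overlapped for both ratios in both lines. Between libraries of the same number, MT-ND4L over MT-ND4 was lower with NEL in 4 of 4 pairs in U937, with differences of -2.66 to -0.79 percentage points, and in 4 of 4 in KG1A, with differences of -3.90 to -1.40. MT-ATP8 over MT-ATP6 was lower in 2 of 4 pairs in each line. With 4 pairs the exact two-sided permutation test over the signs cannot go below 0.125, which was its p for MT-ND4L over MT-ND4 in each line (0.25 adjusted over 6 such comparisons of 3 ratios). Nuclear copies of mitochondrial DNA can take or remove reads of these genes, and how the authors treated such reads is not given in the sources used here.

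Nuclear and mitochondrial genes can be set against each other as shares of the counts. The nuclear subunit genes made up between 0.746% and 0.760% of counts in U937 with NEL and between 0.831% and 0.857% in U937 with DMSO. In KG1A they made up between 0.549% and 0.591% with NEL and between 0.589% and 0.595% with DMSO. Mitochondrial over nuclear counts averaged 8.68 ± 0.979 in U937 with NEL and 9.53 ± 1.35 in U937 with DMSO, and 15.1 ± 2.40 in KG1A with NEL and 15.4 ± 1.60 in KG1A with DMSO (SD, n = 4 each). The ratio overlapped between NEL and DMSO in both lines and differed more between the lines than with the treatment. Between libraries of the same number it was lower with NEL in 4 of 4 pairs in U937, with differences of -1.98 to -0.238, and in 2 of 4 in KG1A. The exact two-sided permutation p over the pairs was 0.125 in U937, the smallest that 4 pairs allow, and 0.625 in KG1A.

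The lines themselves differed in these genes without NEL. In U937 with DMSO against KG1A with DMSO, 51 of 81 nuclear genes were called higher and 15 lower, against 43.0% and 43.4% of all genes, with a median of 0.34. The mitochondrial genes went the other way, 8 of 13 being lower in U937 and 0 higher, with a median of -0.29. With the block 11 were lower and 1, MT-CO3, higher (44.5% and 44.3% of all genes), and MT-CO3 was also called higher without KG1A DMSO library 1 or U937 DMSO library 2 or 4. By complex, 20 of 36 nuclear genes of complex I were higher in U937 and 9 lower. In complex II 3 of 4 were higher and 1 lower. The counts were 7 of 9 of complex III higher and 1 lower, 9 of 14 of complex IV higher and 1 lower, and 12 of 18 of complex V higher and 3 lower.

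**Figure D5:**
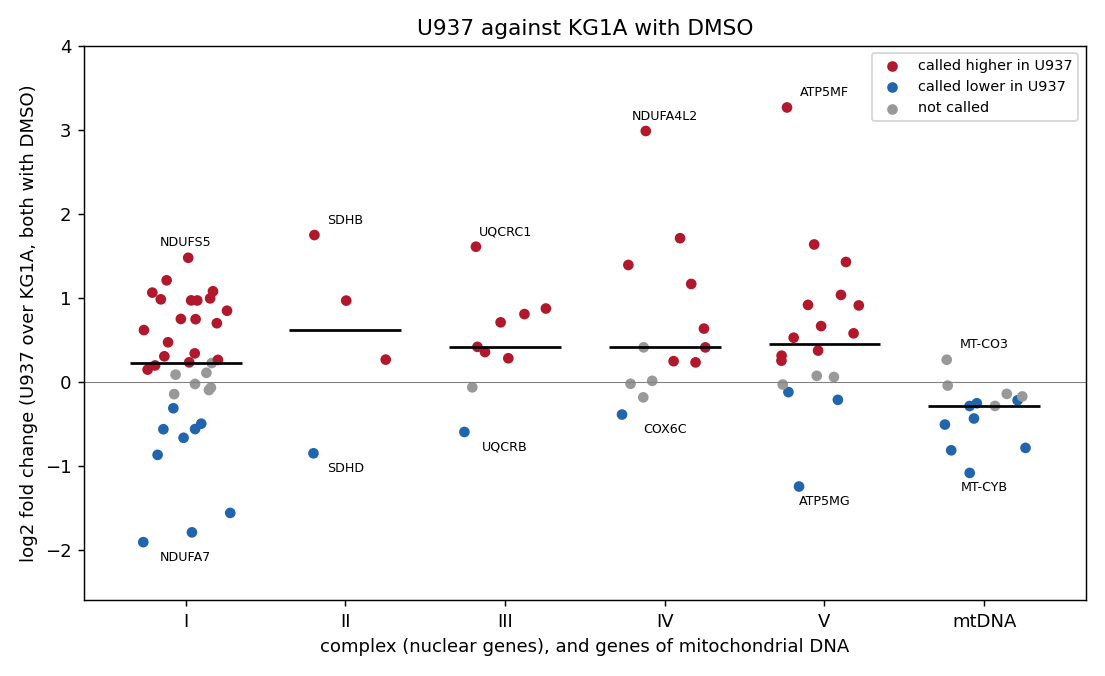
Log2 fold change of U937 over KG1A, both with DMSO, for each nuclear subunit gene tested, by complex, and for the 13 mitochondrially encoded genes; colours give the call and bars the median, and COX8C is not drawn because it has 0 counts in KG1A with DMSO. ATP5MF and NDUFA4L2 are the highest points and NDUFA7 the lowest, and the mitochondrial genes lie mostly below 0. NDUFA7 rests on few counts, 9 to 17 per library in U937 with DMSO.

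ATP5MF had 130.3, 120.2, 128 and 117 CPM in U937 with DMSO, against 12.5, 10.8, 14.1 and 11.2 CPM in KG1A with DMSO. It was 9.63-fold higher in U937, with no overlap and a log2 fold change of 3.27 ± 0.07 (SE, edgeR adjusted p = 1.27e-16). The gene overlaps the readthrough locus ATP5MF-PTCD1 and the gene PTCD1 on the same strand, so reads that they share are uncertain. The readthrough locus itself had 1.73 ± 0.321 CPM in U937 with DMSO and 1.35 ± 0.306 CPM in KG1A with DMSO (SD, n = 4 each). COX8C was at least 112-fold higher in U937, set against 3 counts over the KG1A group. It overlaps UNC79 on the same strand, so its counts are uncertain as well. NDUFA4L2 was higher at 2.99 ± 0.22 (SE, edgeR adjusted p = 9.49e-10), with 6.52 ± 0.986 CPM in U937 with DMSO and 0.766 ± 0.206 CPM in KG1A with DMSO.

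SDHB had 159.8, 181, 168 and 178 CPM in U937 with DMSO, against 43.9, 51.4, 47.9 and 49.6 CPM in KG1A with DMSO, and SDHC averaged 31.2 ± 1.16 CPM in U937 with DMSO and 15.05 ± 1.01 CPM in KG1A with DMSO (SD, n = 4 each). Both were higher in U937, at 1.75 ± 0.06 (SE, edgeR adjusted p = 1.51e-14) and 0.97 ± 0.07 (SE, edgeR adjusted p = 1.54e-09). SDHD ran against them. It had 66.8, 67.9, 71.0 and 69.2 CPM in U937 with DMSO, against 119.8, 114, 116 and 118 CPM in KG1A with DMSO, a log2 fold change of -0.85 ± 0.04 (SE, edgeR adjusted p = 7.51e-12). In complex V, ATP5MC3 was higher in U937 at 1.64 ± 0.04 (SE, edgeR adjusted p = 7.56e-16) and ATP5F1B at 1.43 ± 0.05 (SE, edgeR adjusted p = 1.23e-14). ATP5MG had 107, 101, 108 and 98.6 CPM in U937 with DMSO, against 250.3, 223, 235 and 221 CPM in KG1A with DMSO, and was lower at -1.25 ± 0.05 (SE, edgeR adjusted p = 3.53e-13). In complex III, UQCRC1 was higher at 1.61 ± 0.07 (SE, edgeR adjusted p = 4.95e-13) and UQCRQ at 0.87 ± 0.09 (SE, edgeR adjusted p = 7.13e-08), and UQCRB was lower at -0.60 ± 0.06 (SE, edgeR adjusted p = 3.01e-08).

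In complex I, NDUFS5 was higher in U937 at 1.48 ± 0.04 (SE, edgeR adjusted p = 7.61e-15) and NDUFB9 at 1.21 ± 0.04 (SE, edgeR adjusted p = 2.07e-14), both accessory subunits of the membrane arm. NDUFA10, an accessory subunit, was lower at -1.56 ± 0.05 (SE, edgeR adjusted p = 4.79e-14) and NDUFS8, a core subunit with iron-sulphur clusters, at -0.87 ± 0.10 (SE, edgeR adjusted p = 3.23e-07). NDUFA10 averaged 41.2 ± 2.93 CPM in U937 with DMSO and 115 ± 4.01 CPM in KG1A with DMSO (SD, n = 4 each). In complex IV, COX5B was higher at 1.71 ± 0.05 (SE, edgeR adjusted p = 1.54e-15) and COX7B at 1.39 ± 0.06 (SE, edgeR adjusted p = 7.86e-13), and COX6C was lower at -0.39 ± 0.06 (SE, edgeR adjusted p = 2.84e-05). Among mitochondrial genes, MT-CYB had 3547, 3064, 4304 and 3332 CPM in U937 with DMSO, against 8253, 6975, 6933 and 6346 CPM in KG1A with DMSO, the largest difference of the 13 at -1.08 ± 0.09 (SE, edgeR adjusted p = 8.42e-09). MT-ND5 followed at -0.81 ± 0.08 (SE, edgeR adjusted p = 8.04e-08) and MT-ND3 at -0.79 ± 0.14 (SE, edgeR adjusted p = 6.39e-05).

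Other genes of the pathway were followed in 5 lists, which were chosen with results of these data known. Of 52 assembly factors tested, which build the complexes and insert their cofactors, 29 were lower and 7 higher in U937, and 14 lower and 4 higher in KG1A, with medians of -0.34 and -0.04. The shares called lower were 55.8% in U937 against 34.7% of all genes, and 26.9% in KG1A, near the 23.6% of all genes. NDUFAF4, an assembly factor of complex I, had 13.3 ± 1.71 CPM in U937 with NEL and 36.3 ± 2.37 CPM in U937 with DMSO (SD, n = 4 each) and was lower at -1.44 ± 0.09 in U937, with -0.23 ± 0.09 (SE, edgeR adjusted p = 0.0519) in KG1A, not called. In KG1A it was called lower in 8 alternatives, the block among them, at adjusted p of 0.00152 to 0.0439. The difference between the lines was -1.22 ± 0.13 (SE, edgeR adjusted p = 1.34e-07). UQCC3, a factor of complex III, was lower at -1.12 ± 0.14 in U937 and had -0.08 ± 0.09 in KG1A, not called. NDUFAF3 fell in both lines, at -0.75 ± 0.11 in U937 and -0.82 ± 0.14 in KG1A. COX20, a factor of complex IV, was higher in U937 at 0.39 ± 0.04 (SE, edgeR adjusted p = 2.09e-06) and lower in KG1A at -0.61 ± 0.04 (SE, edgeR adjusted p = 8.08e-08). SDHAF4, which loads the flavin subunit of complex II, was higher in U937 at 0.54 ± 0.11 (SE, edgeR adjusted p = 0.000578). In KG1A the largest rises were those of COX14, 0.45 ± 0.11 (SE, edgeR adjusted p = 0.00289), and TMEM70, a factor of complex V, 0.31 ± 0.06 (SE, edgeR adjusted p = 0.00113).

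Of 30 genes for copying, transcribing and processing mitochondrial DNA and RNA, 23 were lower and 2 higher in U937, and 9 lower and 2 higher in KG1A. The test of the difference called 20 with the more negative effect in U937 and 1 with the more positive. The shares called lower were 76.7% in U937, 30.0% in KG1A and 66.7% in the difference, against 34.7%, 23.6% and 26.3% of all genes. The list's median was -0.52 in U937 and -0.02 in KG1A. TWNK, the helicase that copies mitochondrial DNA, averaged 22.8 ± 0.803 CPM in U937 with NEL and 77.3 ± 7.03 CPM in U937 with DMSO, and 29.4 ± 1.12 CPM in KG1A with NEL and 35.2 ± 0.741 CPM in KG1A with DMSO (SD, n = 4 each). Its log2 fold changes were -1.76 ± 0.07 (SE, edgeR adjusted p = 7.49e-11) in U937 and -0.27 ± 0.05 (SE, edgeR adjusted p = 0.000972) in KG1A. TFB2M, which the mitochondrial RNA polymerase needs to start transcription, had 15.02 ± 0.396 CPM in U937 with NEL and 41.0 ± 1.99 CPM in U937 with DMSO (SD, n = 4 each). Its log2 fold change was -1.45 ± 0.06 (SE, edgeR adjusted p = 1.98e-10) in U937 and -0.10 ± 0.10 (SE, edgeR adjusted p = 0.433) in KG1A. TFB1M, a methyltransferase of the mitochondrial ribosome, was higher in U937 at 0.37 ± 0.07 (SE, edgeR adjusted p = 0.000211) and lower in KG1A at -0.19 ± 0.07 (SE, edgeR adjusted p = 0.0428). The KG1A call was lost in 11 alternatives, at log2 values of -0.21 to -0.04 and adjusted p of 0.0503 to 0.766, among them those without any one of KG1A NEL libraries 1, 2 and 3 and KG1A DMSO libraries 1 and 3. The difference between the lines was 0.55 ± 0.10 (SE, edgeR adjusted p = 7.3e-05). MTERF4, which acts with a ribosomal RNA methyltransferase, was higher in U937 at 0.21 ± 0.08 (SE, edgeR adjusted p = 0.0254). This call was lost by the DESeq2 test, without the filter, in either library set alone and without any one of U937 NEL libraries 2 and 4 and U937 DMSO libraries 1 and 3, at adjusted p of 0.0585 to 0.134. In KG1A POLG, the mitochondrial DNA polymerase, was higher at 0.27 ± 0.05 (SE, edgeR adjusted p = 0.000376) and MGME1, a nuclease of mitochondrial DNA, at 0.25 ± 0.08 (SE, edgeR adjusted p = 0.0147). POLG2, the partner of POLG, was lower at -0.45 ± 0.10 (SE, edgeR adjusted p = 0.00144) and FASTKD3, an RNA-binding protein of the organelle, at -0.40 ± 0.09 (SE, edgeR adjusted p = 0.00283).

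Of 10 nuclear regulators of mitochondrial genes, 7 were lower and 2 higher in U937, and 4 of the 8 tested were lower and 0 higher in KG1A, with medians of -0.50 and -0.25. Among all genes tested 34.7% were lower in U937 and 23.6% in KG1A. PPRC1, a coactivator of mitochondrial genes, was lower in U937 at -1.37 ± 0.05 (SE, edgeR adjusted p = 4.39e-11) and in KG1A at -0.31 ± 0.05 (SE, edgeR adjusted p = 0.000152). NRF1, the factor that binds the motif searched for, was lower in U937 at -0.83 ± 0.08 (SE, edgeR adjusted p = 6.57e-07) and in KG1A at -0.40 ± 0.10 (SE, edgeR adjusted p = 0.00407). GABPA and GABPB1, which form the ETS factor GABP, were lower in U937 at -0.35 ± 0.05 (SE, edgeR adjusted p = 5.32e-05) and -0.54 ± 0.05 (SE, edgeR adjusted p = 7.06e-07). In KG1A they were lower at -0.45 ± 0.05 (SE, edgeR adjusted p = 6.49e-06) and -0.47 ± 0.04 (SE, edgeR adjusted p = 8.49e-07). PPARGC1A, another coactivator, and TFEB, a lysosome and mitochondria regulator, were higher in U937 at 0.27 ± 0.06 (SE, edgeR adjusted p = 0.000823) and 0.32 ± 0.05 (SE, edgeR adjusted p = 6.4e-05).

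Of 12 genes for electron carriers and for subunits outside the name patterns, 8 were lower and 1 higher in U937, and 6 lower and 3 higher in KG1A, with medians of -0.27 and -0.12. Here too the shares called lower, of which that in U937 was 66.7%, were above the 34.7% and 23.6% of all genes. COQ3, COQ4, COQ7 and COQ9 take part in making ubiquinone. COQ3 was lower in U937 at -0.92 ± 0.17 (SE, edgeR adjusted p = 0.0003) and in KG1A at -0.47 ± 0.14 (SE, edgeR adjusted p = 0.011). COQ7 was lower in KG1A at -0.72 ± 0.10 (SE, edgeR adjusted p = 2.63e-05). COQ4 was higher in KG1A at 0.26 ± 0.09 (SE, edgeR adjusted p = 0.0309), a call lost at adjusted p of 0.0629 to 0.0843 without any one of KG1A NEL libraries 1, 2 and 3 and KG1A DMSO libraries 2, 3 and 4. COQ9 was higher in U937 at 0.29 ± 0.06 (SE, edgeR adjusted p = 0.000673). PDSS1, which makes the tail of ubiquinone, was lower in U937 at -0.91 ± 0.10 (SE, edgeR adjusted p = 2.12e-06) and higher in KG1A at 0.39 ± 0.08 (SE, edgeR adjusted p = 0.0015). Of 21 genes of the citrate cycle and pyruvate entry, 12 were lower and 4 higher in U937, and 6 lower and 6 higher in KG1A, with medians of -0.27 and -0.04. The shares lower and higher were 57.1% and 19.0% in U937, against 34.7% and 34.6% of all genes, and 28.6% each in KG1A, near the 23.6% each of all genes. IDH2, the mitochondrial NADP-dependent isocitrate dehydrogenase, was higher in both lines, at 0.76 ± 0.04 (SE, edgeR adjusted p = 5.25e-10) in U937 and 0.94 ± 0.05 (SE, edgeR adjusted p = 2.11e-09) in KG1A. MPC2, a part of the pyruvate carrier, was likewise higher at 0.86 ± 0.06 (SE, edgeR adjusted p = 1.1e-08) in U937 and 0.39 ± 0.05 (SE, edgeR adjusted p = 1.08e-05) in KG1A. PC, pyruvate carboxylase, was lower in U937 at -0.84 ± 0.07 (SE, edgeR adjusted p = 1.15e-07) and IDH3G, of the NAD-dependent isocitrate dehydrogenase, at -0.40 ± 0.04 (SE, edgeR adjusted p = 1.01e-06). In KG1A PDHB, of the pyruvate dehydrogenase, was lower at -0.44 ± 0.05 (SE, edgeR adjusted p = 2.38e-06) and MDH2, malate dehydrogenase, at -0.37 ± 0.05 (SE, edgeR adjusted p = 1.32e-05).

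Within the nuclear subunit genes, the fold change moved with the length of the gene's exons. Across 80 genes in U937 Pearson's r with log2 length was 0.29, and across 79 in KG1A 0.16. Over the 14390 and 14250 genes tested it was 0.03 and 0.02. Across 81 nuclear genes it was 0.35 for the difference between the lines and -0.30 for U937 against KG1A with DMSO. Over all genes tested these values were 0.02 and -0.02. These are correlations across genes, which are not independent, with no test. Of 1845 other genes under 1500 bases in U937, 27.4% were called lower and 26.7% higher, and of 1864 in KG1A 14.9% and 14.7%. Their median lengths were 741 bases in U937 and 731 in KG1A. The nuclear subunit genes tested had medians of 2318 and 2347 bases, so the 2 sets are not matched in length. Of the 87 nuclear genes 45 overlap another gene of the table and 21 one on the same strand, and their counts are uncertain to that degree. Of the genes described here the same-strand overlaps touch NDUFA7, NDUFA13, NDUFV2, SDHD, UQCR11, COX6A1, COX6B2, COX8A, COX8C, ATP5MF, ATP5MG and ATP5PO. The pseudogenes COX6A1P2 and ATP5F1EP2, left out by the rule, had 440 to 809 and 63 to 114 counts per library. Of the 8 loci that only share a stem, 4 were tested in U937, where NDUFB2-AS1 was lower at -0.70 ± 0.13 (SE, edgeR adjusted p = 0.000293). In KG1A 5 were tested, of which UQCRB-AS1 and ATP5MF-PTCD1 were lower, the last at -0.73 ± 0.28 (SE, edgeR adjusted p = 0.0424).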

How the data were processed

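Stranded polyA-selected RNA libraries of 16 cell line samples were analysed. The authors deposited raw counts per gene and RPKM values per gene, and the submitters' processing notes name TopHat2, HTSeq 0.11.2, bcl2fastq 2.18.0.12 and the build hg19 (GRCh37). Whether counting used strand is not given in the sources used here. Deposited RPKM values equal count over total exon length and library total. Ensembl IDs were given symbols through a reference table (32562 of 34618 matched; the other IDs hold 0.878% of the counts).

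Counts were tested with edgeR 4.0.16 (R 4.3.3) by the quasi-likelihood test with TMM factors, after edgeR's filter on low counts (minimum count 10, minimum total 15), in 4 comparisons: NEL against DMSO within U937 and within KG1A, the difference of these effects over all 16 libraries, and U937 against KG1A with DMSO. P-values were adjusted by Benjamini-Hochberg over all genes tested in a comparison, and SEs were taken from the fold change and its F statistic. The procedure was also run on simulated counts. There 98% of log2 changes of 0.5 were recovered in U937, 95% in KG1A, 95% between the lines and 77% in the difference. The simulation gave every gene the same spread and no odd-even library effect, so it cannot show how the calls fare with that effect. The groups compared share replicate numbers 1 to 4 in the labels. Same-numbered libraries deviated together (correlations of deviations from 0.112 to 0.238, each over 0.1). Libraries 1 and 3, and 2 and 4, also deviated together, in some cases more and in others less. In KG1A, NEL library 3 had 0.192 with DMSO library 1 and 0.149 with DMSO library 3. In U937, NEL library 2 had 0.238 with DMSO library 2 and 0.155 with DMSO library 4. Neither the labels nor these correlations thus set a pairing by single number apart from the odd and even sets.

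The alternatives were DESeq2 (1.42.0) size factors and test, upper quartile factors, other filters, limma 3.58.1 (voom on counts, trend on log2 RPKM with 0.5 or 0.1 added), a threshold of 0.01, a replicate block, a library set covariate, each library set alone, sums of libraries, and each library left out. Named genes are, in each comparison and complex, the 2 called nuclear members with the largest change each way among those with groups apart and at least 5 CPM, all mitochondrial genes, the alternative forms, the SDH genes, ATP5IF1, members with opposite calls and 2 each way per list; further subunits were named after their values were seen. The members and lists were chosen with earlier results of these data known. Values of 1 gene that the rule names are not reported here, although the counts include it.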

Additional observations from a re-analysis of the deposited data

Results flagged for a closer look

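In 2 of the 236 sets of 4 libraries examined, 1 library stood far from the other 3 of its group. For UQCRB, KG1A with NEL library 4 had 157.9 CPM while the others had 147.6 CPM each. For UQCRC2, KG1A with NEL library 2 had 187.5 CPM while the others had 196.4 to 198.1 CPM. Chance alone would pick out about 1 in 20 groups.

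The NEL effect differed between the lines for 22 of the subunit genes named by the rule given above. This is by edgeR's quasi-likelihood test of the difference itself, U937 minus KG1A, adjusted over all genes. Some genes were named because of this test, so the count is not a result about them. Of all genes tested, 26.3% were called lower and 21.1% higher. Among mitochondrial genes the difference was -0.89 for MT-ND1, -0.82 for MT-ND2, -0.70 for MT-ATP6, -0.59 for MT-CYB and 0.37 for MT-ND5 on the log2 scale. In complex I it was -0.62 for NDUFS6, -0.57 for NDUFA2, -0.56 for NDUFV3, -0.46 for NDUFS5, -0.40 for NDUFA3, -0.31 for NDUFV1 and -0.23 for NDUFB9. In complex III it was -0.53 for UQCR11, -0.34 for UQCRQ and 0.14 for UQCRC2, and in complex IV -0.51 for COX5A and -0.25 for COX7B. In complex V it was -1.15 for ATP5MC1, -0.57 for ATP5MF, -0.45 for ATP5F1D, -0.38 for ATP5MC3 and -0.30 for ATP5IF1. The call of UQCRC2 was lost without U937 NEL library 3, U937 DMSO library 1, KG1A NEL library 2 or KG1A DMSO library 4.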

How the results depend on the processing

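The counts of nuclear genes called lower stayed within 1.5 times their value under all alternatives run, at 52 in U937 (49 to 56 with 1 library left out), 29 in KG1A (25 to 31) and 33 for the difference (31 to 34). Smaller counts moved, and the cause was not tested. For the 5 nuclear genes higher in U937 it was 8 with the replicate block or the library set covariate, 11 by limma-trend with either pseudocount, 9 by upper quartile factors, 2 at a threshold of 0.01, and 2 to 7 with 1 library left out. For the 4 higher in KG1A it was 8 with the block, the covariate, sums or limma-trend, 2 without the filter, in one model or by upper quartile factors, 1 by the DESeq2 test or at 0.01, and 1 to 5 with 1 library left out. For the 2 higher in the difference it was 8 by DESeq2 size factors, 7 by the DESeq2 test, upper quartile factors, sums or odd libraries, 5 by even libraries, 10 with the block or covariate, 4 by limma-trend, 0 at 0.01, and 1 to 5 with 1 library left out.

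Among mitochondrial genes, the 1 higher in U937 became 2 with the block, covariate, sums, odd or even libraries. The 2 lower in KG1A became 13 with the block or covariate, 12 with even and 7 with odd libraries, 10 with sums, 6 without the filter, 1 at 0.01, 0 by limma-trend, and 2 to 10 with 1 library left out. In the difference, the 4 lower became 9 with the block, covariate, sums or odd libraries and 8 with even ones, and the 1 higher became 4 with even libraries, 3 with the block or covariate, 2 with odd libraries or sums, 0 at 0.01, and 0 to 1 with 1 library left out. Between the lines, the 8 lower became 5 by limma-trend or in one model, and the 0 higher became 1 with the block, covariate, sums, odd or even libraries, upper quartile factors, one model or no filter, and 0 to 1 with 1 library left out. By limma-trend on log2 RPKM the U937 falls of SDHB, NDUFV1, UQCRB, MT-CO1, MT-CO2 and MT-CO3 and the KG1A falls of ATP5MC3, ATP5MG, UQCR11, MT-CYB and MT-ND4L were not called. For the ratios of mitochondrial genes and of mitochondrial to nuclear counts, the comparison of same-numbered libraries, added after the data were seen, gave adjusted p of 0.25 to 1. The difference for PPARGC1A, -1.33, reversed to 0.32 and 0.31 by limma-trend with 0.1 and 0.5 added; KG1A had at most 1 count of this gene in a library. Calls near 1 CPM, such as NDUFA13, are limited by depth.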
